A study of Mus musculus with 6 samples.

Results

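The DNA replication and S-phase genes are 43 genes for origin licensing, the replication fork and nucleotide synthesis, chosen by symbol from a fixed list. Each of the 43 symbols matched 1 row of the 21956 genes in the deposited table. RNA was sequenced from the livers of 6 mice, 3 in each of 2 genotypes. The knockout mice carried the alleles Stingfl/fl with Cdh5-Cre+, which directs loss of the DNA-sensing adaptor Sting to endothelial cells through the Cdh5 promoter, and the control mice were Cre-negative littermates, Stingfl/fl Cdh5-Cre-. Both groups therefore carried the floxed alleles, and only the knockout group carried Cre, so that an effect of Cre and one of the deletion cannot be told apart. All mice ate normal chow to 8 weeks of age and then for 10 weeks the high-fat diet CDAHFD, choline-deficient and L-amino acid-defined, which produces steatohepatitis. No mice on another diet and no mice with wild-type Sting alleles are part of the comparison. It asks whether the S-phase programme of the injured liver differs with endothelial Sting.

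Before a cell copies its DNA, the origin recognition complex, Cdc6 and Cdt1 load the MCM helicase onto origins. Cyclin E with its kinase, and E2F transcription factors freed from the retinoblastoma proteins, drive entry into S phase, when Cdc45 and GINS turn the loaded MCM ring into an active helicase and polymerases follow with the sliding clamp PCNA. Adult hepatocytes rarely divide but enter the cycle after injury, and in steatohepatitis several liver cell types cycle at the same time.

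Libraries held 16704663 to 21025466 counts. The labels name both liver and sinusoidal endothelial cells. The hepatocyte transcript Alb took 6.91% to 10.9% of the counts, as in whole liver. Counts of Sting1 were 106, 114 and 80 in knockout replicates 1 to 3 against 240, 365 and 226 in control replicates 1 to 3, so that every knockout library lay below every control library (log2 fold change -1.29, standard error 0.23, adjusted p = 0.357 in edgeR). Control replicate 2 stood apart, with a mean correlation with the other libraries of 0.953 against 0.966 to 0.974, the lowest Alb share, and a TMM scaling factor of 1.26 against 0.922 to 1.01. In bulk liver, fewer cycling cells and less RNA per cycling cell cannot be told apart.

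Promoter sequence sets the replication genes beside the mitosis genes with which they are compared further on. E2F factors bind a motif typical of replication genes, searched here as TTTCCCGC, TTTGGCGC, TTTCGCGC or TTTGCCGC. The CHR element, searched as TTTGAA or TTCGAA, is bound by the DREAM and MuvB complexes at genes of mitosis. Each was searched on both strands of 300-base windows, from 250 bases before each RefSeq start (GRCm38.p6). Overlapping matches were counted. Of the 35 members with a window, 12 (34.3%) held an E2F match, against 4.50% of 10320 genes tested and 2.61% of all 27025 genes with a window. Matches were found for 7 of 10 licensing genes and for 0 of 5 nucleotide synthesis genes. The CHR match was present in 7 members (20.0%), against 16.8% of genes tested and 21.7% of all genes with a window. Among 34 of 40 mitosis genes with a window, 1 held an E2F match (2.94%) and 26 a CHR match (76.5%). The CCAAT box, searched as CCAAT, stood in 62.9% of members, 79.4% of mitosis genes, 42.8% of genes tested and 41.1% of all genes with a window. The members Mcm4, Gins1, Gins2, Gins4, Prim2, Pole, Rfc2 and Ccne2 are not covered. A match is a run of letters and shows no binding.

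The stretches below run over the 160 bases before the RefSeq start, 5′ to 3′ on the gene's strand. They are shown because they carry the motif that differs in frequency between the replication and the mitosis genes. Capitals mark E2F matches in the first 4 (Mcm5 at chr8:75109349-75109508, plus strand; Mcm6 at chr1:128359706-128359865, minus strand; Cdc6 at chr11:98907991-98908150, plus strand; Pola1 at chrX:93632156-93632315, minus strand). In the last 3 they mark CHR matches (the spindle protein gene Ckap2 at chr8:22185820-22185979, minus strand; Cdkn3 at chr14:46760381-46760540, plus strand; the mitotic kinesin gene Kif11 at chr19:37376222-37376381, plus strand). In Mcm5 and Mcm6 a pair of E2F matches on opposite strands overlap into 1 capital run. For Cdc6 the GENCODE gene starts earlier than the RefSeq start used here, at 98907801, so that its stretch lies inside the annotated gene.
Mcm5: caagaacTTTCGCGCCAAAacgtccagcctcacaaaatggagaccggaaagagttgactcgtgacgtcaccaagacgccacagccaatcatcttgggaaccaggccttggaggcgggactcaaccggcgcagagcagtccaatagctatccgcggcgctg
Mcm6: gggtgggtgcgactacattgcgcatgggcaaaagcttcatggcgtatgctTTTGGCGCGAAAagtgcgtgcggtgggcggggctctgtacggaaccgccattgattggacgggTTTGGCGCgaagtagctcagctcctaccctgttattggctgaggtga
Cdc6: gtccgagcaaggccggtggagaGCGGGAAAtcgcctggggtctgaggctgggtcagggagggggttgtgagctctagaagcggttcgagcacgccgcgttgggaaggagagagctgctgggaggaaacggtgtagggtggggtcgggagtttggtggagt
Pola1: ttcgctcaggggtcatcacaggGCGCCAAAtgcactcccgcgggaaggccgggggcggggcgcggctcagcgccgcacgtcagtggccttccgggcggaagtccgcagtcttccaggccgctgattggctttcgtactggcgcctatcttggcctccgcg
Ckap2: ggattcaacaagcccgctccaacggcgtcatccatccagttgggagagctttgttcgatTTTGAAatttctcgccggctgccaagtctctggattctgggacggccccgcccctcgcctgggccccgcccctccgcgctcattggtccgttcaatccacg
Cdkn3: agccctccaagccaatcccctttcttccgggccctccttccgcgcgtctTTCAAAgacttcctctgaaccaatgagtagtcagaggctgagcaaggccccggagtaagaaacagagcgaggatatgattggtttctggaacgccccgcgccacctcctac
Kif11: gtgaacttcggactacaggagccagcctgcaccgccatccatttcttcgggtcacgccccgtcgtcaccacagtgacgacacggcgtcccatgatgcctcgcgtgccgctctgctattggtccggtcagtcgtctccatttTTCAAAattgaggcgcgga

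**Figure D1:**
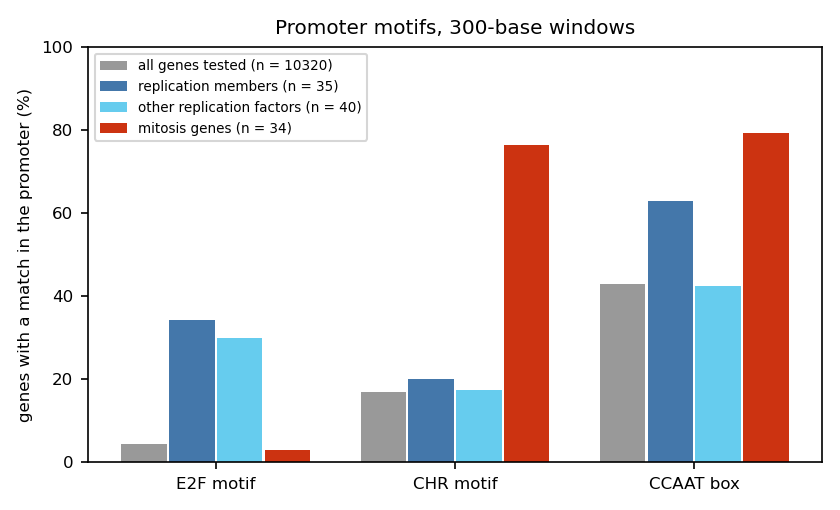
Share of genes (%) with at least 1 match to each motif in the 300-base promoter window, for all genes tested, the replication members, other replication factors and mitosis genes. The E2F motif stood in 34.3% of members and 2.94% of mitosis genes, and the CHR motif in 20.0% and 76.5%.

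The replication genes were transcribed at low levels in both genotypes. TPM, a share of transcripts scaled to gene length, compares genes with each other. Pcna, the sliding clamp that holds polymerases on DNA, was the most abundant member at 65.3 ± 13.9 TPM (SD, n = 3) in control and 53.9 ± 5.56 TPM in knockout livers, and made up 17.8% of the summed TPM of the members. Next came Rpa1, the large subunit of the single-strand binding protein, at a mean of 19.3 TPM over the 6 libraries, Mcm10, a fork assembly factor, at 18.3, and Gins4 at 16.9. The ranges of these 3 over the libraries overlapped, but within every library Rpa1 lay above Gins4. Mcm10 lay above Rpa1 in knockout replicate 3 and control replicate 3 and below it in the other libraries. At the other end stood the licensing factors Cdc6 at 0.567 TPM and Orc1 at 0.191 TPM. Orc1 had 0, 8 and 8 counts in the knockout against 5, 6 and 9 in the control libraries and did not pass the filter on low counts; a count of 0 allows up to 3 counts, or 0.159 CPM on the TMM scale, in knockout replicate 1. The other 42 members were tested, with mean counts per library from 18.0 for Cdc6 to 941.5 for Pcna.

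Subunits that act in fixed complexes differed in level by 2.2 to 16.7 times. In the MCM2 to 7 ring, the motor of the replicative helicase, Mcm7 was the highest at a mean of 12.8 TPM and Mcm4 the lowest at 4.06 TPM, a ratio of 3.15. Each held that place in 4 of 6 libraries, and Mcm6 stood above Mcm7 in knockout replicates 2 and 3. Mcm2, Mcm3, Mcm5 and Mcm6 stood at 5.12, 6.68, 4.70 and 11.6 TPM. In GINS, the 4-subunit partner of Cdc45, Gins4 was highest and Gins3, at 1.01 TPM, lowest in 6 of 6 libraries; Gins1 stood at 4.22 and Gins2 at 4.60 TPM. The clamp loader was the most even complex, with Rfc2 at 10.7, Rfc1 at 10.0, Rfc3 at 7.37, Rfc5 at 6.11 and Rfc4 at 4.89 TPM. Rfc2 was its highest subunit in 2 of 6 libraries. In RPA, the single-strand binding protein, Rpa3 stood at 8.28 and Rpa2 at 6.14 TPM. For the polymerase that primes DNA synthesis, Pola2 stood at 6.18, Prim1 at 4.87, Prim2 at 4.38 and the catalytic subunit Pola1 at 1.81 TPM.

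**Figure D2:**
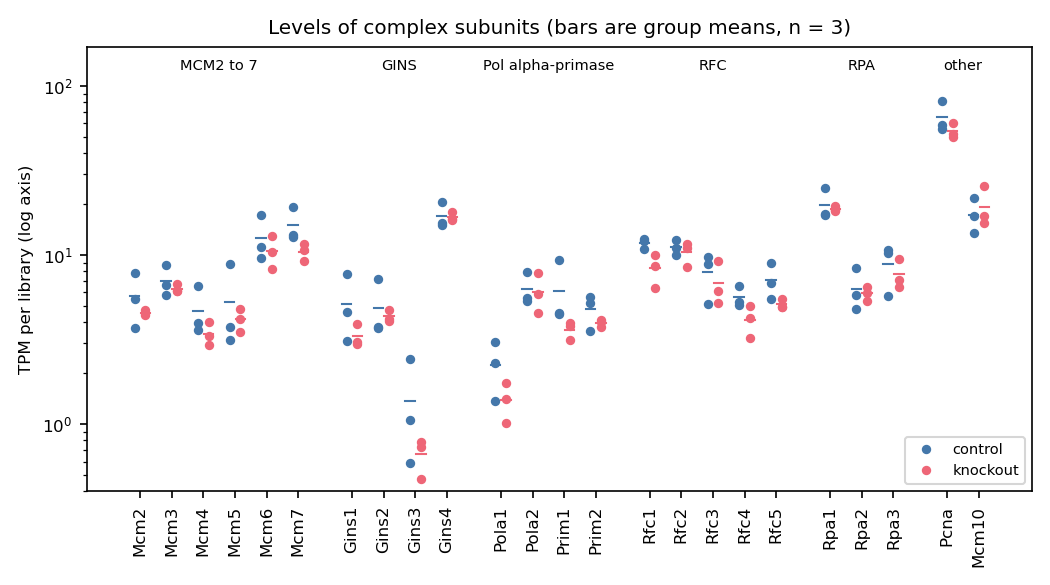
TPM of each subunit in each library (log axis), control in blue and knockout in red, with the group mean as a bar (n = 3). The groups overlap for most subunits; Gins3 is the lowest subunit drawn, at a mean of 1.01 TPM, and Pcna the highest at 59.6 TPM.

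No replication gene passed the test between the genotypes across all genes. In edgeR's quasi-likelihood test with Benjamini-Hochberg adjustment over 13197 genes, 0 of 42 members passed at 0.05, where 0.0% of all genes passed. The smallest adjusted p among members was 0.444, for Rfc1. DESeq2 called 0 members, against 0.902% of all genes (0.273% above and 0.629% below control). By limma-voom 0 members passed, and 0 of all genes. At an unadjusted p under 0.05 there was 1 member (2.38%), lower in the knockout, against 10.8% of all genes (3.75% higher and 7.0% lower). Of the members 22 lay above 0 and 20 below (47.6%, against 48.8% of all genes). Their median log2 fold change was 0.01, with the middle 50% between -0.19 and 0.15. All genes tested had a median of 0.01 with the middle 50% between -0.22 and 0.18. These directions hold for TMM scaling: with total counts as the scale 38 of 42 members lay below 0 and in log2(TPM + 1) 37 did, with the median of all genes at -0.21 and -0.20. The members' groups did not overlap for 9 genes, 4 with the knockout above (9.52%) and 5 below (11.9%), against 7.25% and 9.14% of all genes; each of these 9 had a two-sided exact permutation p of 0.1, the smallest that 3 against 3 allows.

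On the TMM scale, the edgeR intervals set how large a difference these libraries leave room for. They do not cover a change of scale. With total counts as the scale the median log2 fold change was -0.228 for the members and -0.209 for all genes. For 32 of the 42 members (76.2%, against 72.9% of all genes) the 95% interval of the fold change lay inside 2-fold in either direction. For 12 members (28.6%, against 39.2%) it lay inside 1.5-fold. Pcna had the log2 fold change -0.01, with an interval from -0.29 to 0.26. The interval reached 2-fold in one direction or both for 10 members, among them Gins3, Pole, Ccne2, Cdc6 and Gins1.

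**Figure D3:**
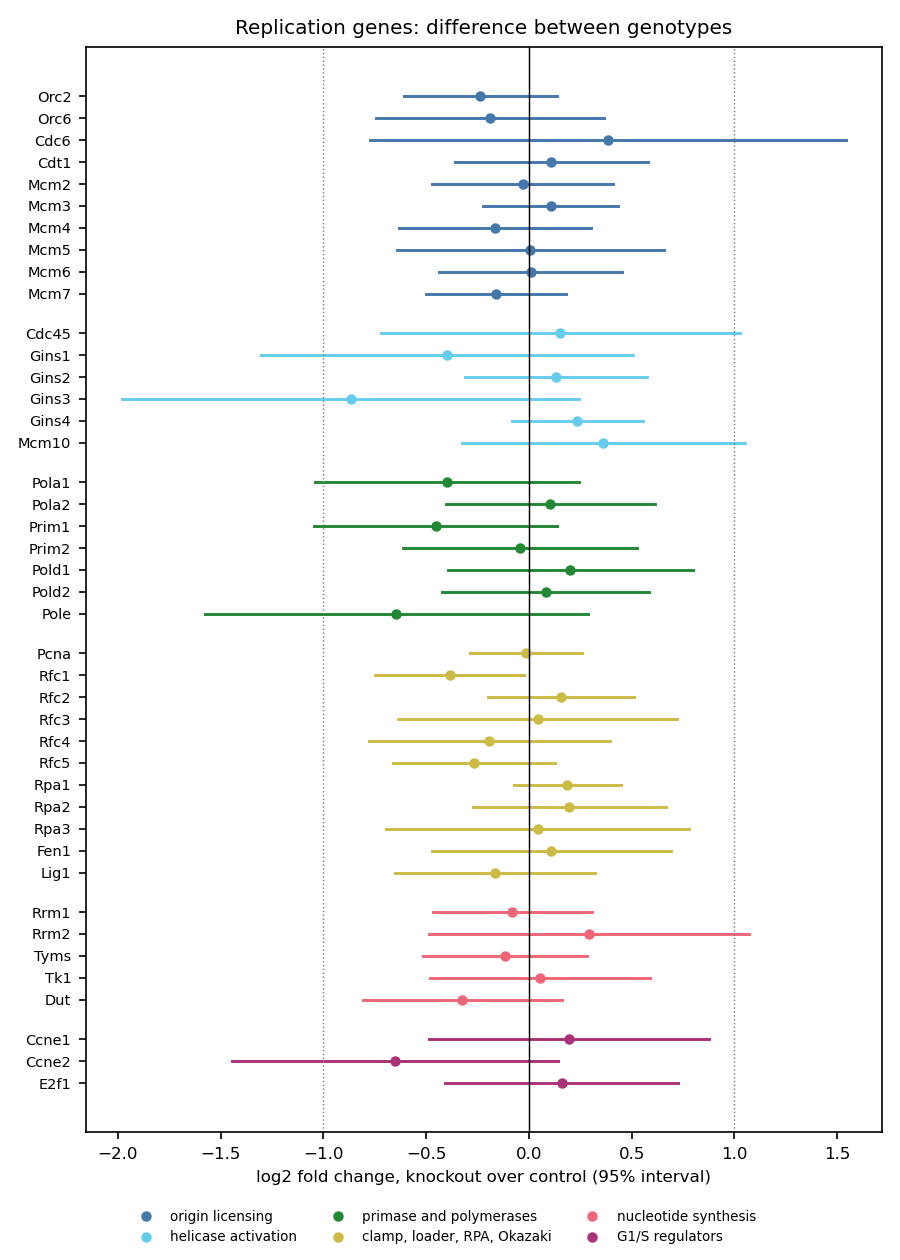
Log2 fold change of each of the 42 members tested, knockout over control, with its 95% interval, coloured by role. Dotted lines mark 2-fold in either direction; the intervals of all members but Rfc1 include 0.

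Licensing genes lay close to 0, with 5 of 10 on each side and a median of -0.01 on the log2 scale. Orc2, a core subunit of the origin recognition complex, had 7.82, 7.23 and 6.92 CPM (counts scaled to library size and, by the TMM method, to library composition) in knockout replicates 1 to 3 against 8.34, 8.29 and 9.27 CPM in control replicates 1 to 3. All knockout libraries were thus lower, by a log2 fold change of -0.24 (standard error 0.16, adjusted p = 0.620). In TPM the difference was larger, with means of 4.67 in knockout and 7.50 in control livers. Orc2 had the smallest p of the members in both TPM fits. In log2(TPM + 1) its log2 fold change was -0.59 (unadjusted p = 0.00773, adjusted p = 0.362 in limma). Orc2 shares 29.8% of its exon bases with Nif3l1 on the opposite strand, and reads of the pair are told apart only if the counting used the strand, and no source used here says whether it did. Mcm7 stood at 14.4, 12.6 and 12.5 CPM in the knockout against 13.0, 15.7 and 15.5 CPM in the control, with overlapping groups (log2 fold change -0.16, standard error 0.15, adjusted p = 0.711). Mcm4 stood at 8.67, 6.20 and 7.09 CPM against 6.97, 9.62 and 8.05 CPM, also overlapping (log2 fold change -0.17, standard error 0.21, adjusted p = 0.782), and at -0.03 without control replicate 2. The other ring subunits had log2 fold changes of -0.03 for Mcm2, 0.11 for Mcm3, 0.01 for Mcm5 and 0.01 for Mcm6. For Mcm3 the knockout libraries, at 11.1 to 12.0 CPM, lay above the control libraries, at 9.95 to 10.9 CPM, but in TPM the groups overlapped, with means of 6.32 in knockout and 7.05 in control livers. Orc6, whose product completes the origin recognition complex, stood at -0.19, Cdt1 at 0.11 and Cdc6, the ATPase that recruits Cdt1 and MCM, at 0.39 with a standard error of 0.51.

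Helicase activation genes had the lowest single value of all members. Gins3 (chromosome 8, 95633453 to 95645060, plus strand, GRCm38) had 16, 19 and 13 counts in the knockout against 16, 53 and 31 in the control libraries. At 0.851, 1.09 and 0.714 CPM against 0.808, 2.52 and 1.51 CPM the groups overlapped, since control replicate 1 lay inside the knockout range. The log2 fold change was -0.87 (standard error 0.49, adjusted p = 0.554), and -0.39 without control replicate 2. Without control replicate 1 it was -1.175, at an unadjusted p of 0.0392 and an adjusted p of 0.667 in edgeR. Gins4 ran the other way, at 13.1, 13.0 and 14.3 CPM in the knockout against 11.0, 11.4 and 11.9 CPM in the control, so that every knockout library was higher (log2 fold change 0.24, standard error 0.14, adjusted p = 0.567), but at -0.01 in log2(TPM + 1). Mcm10 (chromosome 2, 4989714 to 5012791, minus strand) varied widely between mice, at 37.8, 33.4 and 56.8 CPM in the knockout against 33.8, 20.5 and 45.4 CPM in the control. The groups overlapped, with knockout replicate 3 highest and control replicate 2 lowest (log2 fold change 0.36, standard error 0.30, adjusted p = 0.681). Without knockout replicate 3 the value was 0.10, and without control replicate 3 it was 0.66. Gins1 stood at -0.40, and at 0.13 without control replicate 1, which held 90 counts against 33 to 48 in the others. Without control replicate 3 Gins1 stood at -0.61. Gins2 stood at 0.13 and Cdc45, which joins MCM and GINS in the active helicase, at 0.15. Gins2 shares 67.3% of its exon bases with Gse1 on the opposite strand.

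Primase and polymerase genes had a median log2 fold change of -0.04, with 3 of 7 above 0. Prim1, the catalytic primase subunit that makes RNA primers, stood at 2.98, 3.67 and 3.57 CPM in the knockout against 3.84, 6.05 and 4.10 CPM in the control. The groups did not overlap (log2 fold change -0.45, standard error 0.26, adjusted p = 0.560). The log2 fold change was -0.21 without control replicate 2 and -0.56 without control replicate 1. Pole, the catalytic subunit of the leading-strand polymerase, stood at 2.34, 3.84 and 2.97 CPM against 3.94, 7.76 and 2.59 CPM. Here control replicate 2 was far above the rest and control replicate 3 inside the knockout range (log2 fold change -0.64, standard error 0.41, adjusted p = 0.590). Without control replicate 2 the value was -0.09. Without control replicate 3 it was -0.94, at an unadjusted p of 0.0345 and an adjusted p of 0.350 in edgeR. Pola1 stood at 3.24, 5.51 and 4.51 CPM against 6.67, 6.67 and 4.15 CPM, with control replicate 3 inside the knockout range (log2 fold change -0.40, standard error 0.28, adjusted p = 0.627). Pold1 and Pold2, subunits of the lagging-strand polymerase, lay at 0.20 and 0.08, Pola2 at 0.10 and Prim2 at -0.04.

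Clamp, clamp loader and strand-joining genes held the member with the smallest p in edgeR's test of all 6 libraries. Rfc1 (chromosome 5, 65261850 to 65335670, minus strand), the large subunit that loads PCNA, had 392, 409 and 319 counts in the knockout against 595, 495 and 556 in the control. On the CPM scale these were 20.8, 23.5 and 17.5 against 30.1, 23.6 and 27.1, so that the groups did not overlap, although knockout replicate 2 and control replicate 2 stood at nearly the same level. The log2 fold change was -0.39 (standard error 0.16, unadjusted p = 0.0394, adjusted p = 0.444 in edgeR), and it lay between -0.49 and -0.28 when each library was left out in turn. Its unadjusted p was 0.151 without control replicate 1, 0.0877 without control replicate 3, 0.0754 without knockout replicate 1 and 0.135 without knockout replicate 3, and its adjusted p ran from 0.261 to 0.866 over all alternatives. Rpa1 stood at 35.9, 34.1 and 34.0 CPM against 29.2, 31.8 and 30.3 CPM, with every knockout library higher (log2 fold change 0.19, standard error 0.11, adjusted p = 0.574). With total counts as the scale Rpa1 lay at -0.04, so that its direction depends on the scaling. Rfc5 stood at 8.30, 7.57 and 7.64 CPM against 8.08, 9.57 and 10.6 CPM, with overlap (log2 fold change -0.27, standard error 0.17, adjusted p = 0.598). The other loader subunits lay on both sides of 0, Rfc2 at 0.16, Rfc3 at 0.04 and Rfc4 at -0.19, and so did Rpa2 at 0.20, Rpa3 at 0.04, the flap nuclease Fen1 at 0.11 and the ligase Lig1 at -0.17. Fen1 shares 78.8% of its exon bases with the antisense gene Gm10143. Loader subunits share exon bases with opposite-strand genes as well: Rfc2 15.1% with Lat2, Rfc4 12.7% with Eif4a2 and Rfc5 10.7% with Wsb2. Eif4a2 and Wsb2 stood at means of 188.4 and 57.3 TPM.

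Nucleotide synthesis genes, which supply the DNA building blocks, were 2 above and 3 below 0. Dut, the dUTPase that keeps uracil out of DNA, stood at 4.52, 5.45 and 5.55 CPM in the knockout against 5.76, 5.81 and 7.86 CPM in the control. Every knockout library was lower (log2 fold change -0.32, standard error 0.21, adjusted p = 0.603). The value was -0.16 without control replicate 3 and -0.39 without control replicate 1. Rrm2, the ribonucleotide reductase subunit made in S phase, stood at 5.96, 10.1 and 9.78 CPM against 4.30, 10.5 and 6.25 CPM. Control replicate 2 was the highest library and control replicate 1 the lowest, and the log2 fold change was 0.29 (standard error 0.34, adjusted p = 0.770). Without control replicate 2 it was 0.71, at an unadjusted p of 0.0415 and an adjusted p of 0.637, and without control replicate 1 it was 0.05. Tyms, thymidylate synthase, stood at 7.39, 7.52 and 8.90 CPM against 7.68, 9.57 and 8.59 CPM (log2 fold change -0.12, standard error 0.18, adjusted p = 0.816). The reductase subunit Rrm1 lay at -0.08 and the thymidine kinase Tk1 at 0.05.

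The 2 cyclin E genes lay on opposite sides of 0, and neither passed the test. Ccne2 (chromosome 4, 11191351 to 11204779, plus strand) had 37, 35 and 33 counts in the knockout against 89, 49 and 47 in the control, or 1.97, 2.01 and 1.81 CPM against 4.50, 2.33 and 2.29 CPM. The groups did not overlap, control replicate 1 was far above the others, and the log2 fold change was -0.65 (standard error 0.35, adjusted p = 0.532). Without control replicate 1 it was -0.25, and without control replicate 3 it was -0.82. Ccne2 shares 17.4% of its exon bases with Ints8 on the opposite strand. Ccne1 stood at 2.02, 1.89 and 1.98 CPM against 1.77, 1.71 and 1.66 CPM, higher in every knockout library by a small margin (log2 fold change 0.20, standard error 0.30, adjusted p = 0.821). With total counts as the scale Ccne1 lay at -0.02. E2f1, the transcription factor that activates S-phase genes, stood at 3.94, 4.30 and 5.17 CPM against 3.03, 4.48 and 4.49 CPM, with overlap (log2 fold change 0.16, standard error 0.25, adjusted p = 0.827). Its value was -0.07 with total counts as the scale, 0.01 without control replicate 1 and 0.255 without control replicate 2.

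Summed over the members the libraries were nearly level. The summed CPM of the 43 genes was 400.8, 431.5 and 442.9 in knockout replicates 1 to 3 against 400.4, 436.2 and 431.7 in control replicates 1 to 3, or 425.1 ± 21.8 (SD, n = 3) and 422.8 ± 19.5. The library that was highest for most members was control replicate 2, with 13 of 42, and the library that was lowest for most was control replicate 1, with 14. In TPM, which carries no TMM scaling, control replicate 2 held 456.1 and the other 5 libraries 285.5 to 324.9. With total counts as the scale the median log2 fold change of the members was -0.23 and that of all genes -0.21; in log2(TPM + 1) they were -0.18 and -0.20. Relative to all genes the members thus lay between -0.10 and 0.05 under every scale, tool, filter and left-out library that was run.

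Other genes of the same pathway were taken from lists that hold no member. Of 48 other replication factors tested, 0 had an unadjusted p under 0.05, against 10.8% of all genes. Their median log2 fold change was -0.04, with 31 below 0 (64.6%, against 48.8% of all genes). Those with the smallest p were Mtbp, which helps fire origins (-0.71), Dbf4, the activator of the Cdc7 kinase (-0.64), and Topbp1, a scaffold for helicase assembly (-0.36). Of 28 G1/S control genes 2 had an unadjusted p under 0.05, both lower (7.14%, against 7.0% of all genes lower at that p), with a median of -0.19. They were Cdkn1a, the p53-induced inhibitor of cyclin-dependent kinases (-1.28), and Cdk2, the partner of cyclin E (-0.42); the third by p was Ccnd2 (-0.40). Cdkn1a stood at 27.8 ± 5.16 CPM (SD, n = 3) in knockout against 67.5 ± 27.5 CPM in control livers. DESeq2 called 1 of the 28 genes of this list, against 0.902% of all genes. Of 23 checkpoint and fork repair genes 3 were lower and 1 higher at an unadjusted p under 0.05 (17.4% in all, against 10.8% of all genes), with a median of -0.17. The smallest p values belonged to Wee1, the kinase that holds Cdk1 inactive (0.69), the helicase Blm (-0.81) and the checkpoint kinase Atr (-0.56). None of these genes passed edgeR's adjusted test.

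Mitosis genes lay apart from the replication genes. All 40 had a log2 fold change below 0, where 48.8% of all genes did, the median being -1.31. Of the 40, 36 (90.0%) had an unadjusted p under 0.05, where 7.0% of all genes were lower at that p. In edgeR's adjusted test 0 of 40 passed, and DESeq2 called 16, all lower, against 0.629% of all genes called lower. Ckap2, a spindle protein, stood at 2.66, 2.87 and 1.92 CPM in the knockout against 14.2, 13.6 and 7.66 CPM in the control, and the centrosome kinase gene Nek2 and the phosphatase gene Cdkn3 had log2 fold changes of -1.32 and -2.37. Values of 11 mitosis genes were already known when the list was made. The other 29 were listed with those values known, so that neither part of the list is independent evidence. Those 29 all lay below 0, with a median of -1.13. Against the mean of the 6 libraries, the mitosis median was -0.71, -0.51 and -0.75 in knockout against 0.55, 1.26 and 0.11 in control replicates 1 to 3. The replication median in the same libraries was -0.08, 0.04 and 0.00 in knockout against -0.10, 0.06 and 0.01 in control. The mitosis median minus the replication median thus ran from -0.75 to -0.55 in knockout and from 0.10 to 1.20 in control libraries, with no overlap. The summed TPM of mitosis genes was 0.430, 0.443 and 0.461 times that of the replication genes in the knockout against 0.965, 1.22 and 0.698 times in the control. Without control replicate 2 the mitosis median was -0.83 and the replication median 0.06. No test of the difference between the lists was made.

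**Figure D4:**
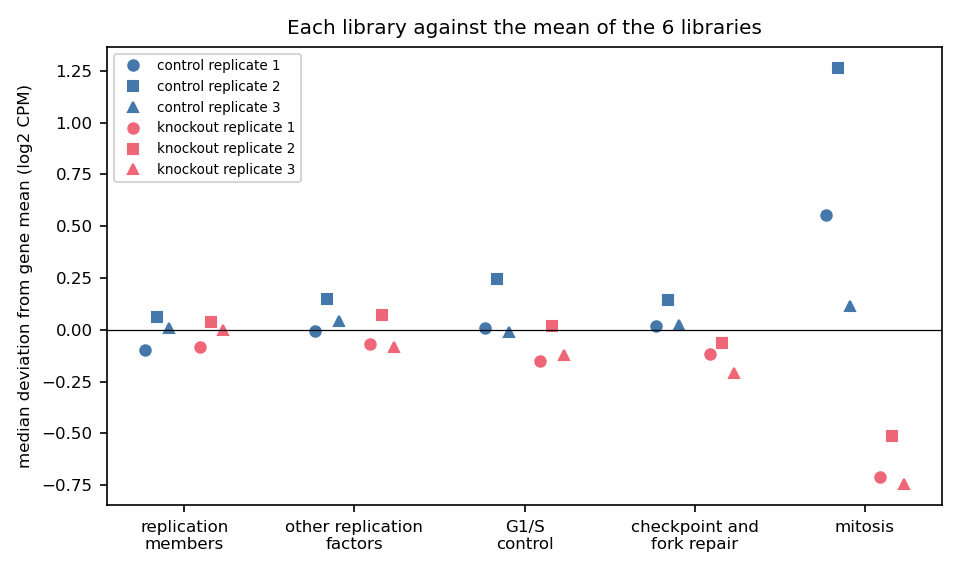
Median over the genes of each list of the deviation of log2 CPM from the gene's own mean over the 6 libraries, 1 point per library. The replication members stay between -0.10 and 0.06 in all 6 libraries, whereas the mitosis genes run from -0.75 to 1.26.

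**Figure D5:**
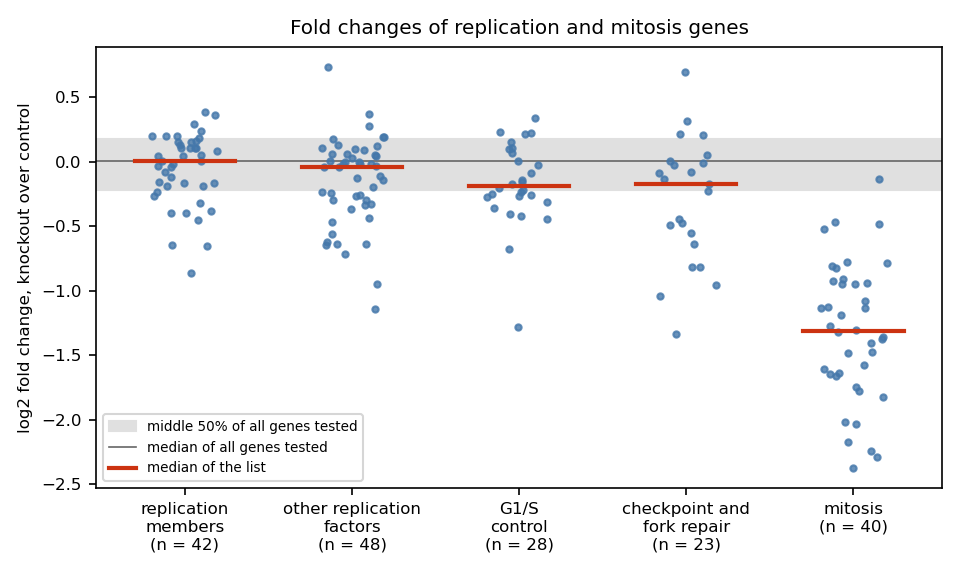
Log2 fold change of every gene tested in 5 lists, knockout over control, with the list median in red and the middle 50% of all genes in grey. The replication members centre on 0.01 and all 40 mitosis genes lie below 0, with a median of -1.31.

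Within the members the promoter motifs did not mark out a direction. The 11 tested members with an E2F match had a median log2 fold change of 0.01, ranging from -0.87 to 0.39, and the 23 without one a median of 0.04. The 7 members with a CHR match had a median of 0.04. Mitosis genes with a CHR match had a median of -1.29 (n = 26) and those without one -1.23 (n = 8).

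No cell type marker passed edgeR's adjusted test. DESeq2 called 1 of 11 cholangiocyte, 1 of 13 stellate and 1 of 14 T or natural killer cell markers, against 0.902% of all genes. Of 11 cholangiocyte markers tested all 11 lay below 0, where 48.8% of all genes did, with a median of -1.25. Their summed CPM ran from 269.8 to 619.0 in knockout and from 573.1 to 1395 in control livers, with overlap. Stellate and myofibroblast markers summed to 1297 to 1546 CPM in knockout against 1478 to 2492 CPM in control livers, also overlapping, with 12 of 13 below 0. T and natural killer cell markers summed to 23.3 to 43.4 CPM in knockout against 19.1 to 22.3 CPM in control livers, with 11 of 14 above 0. Median log2 fold changes were 0.41 for hepatocyte, 0.26 for endothelial and 0.29 for macrophage and monocyte markers. They were -0.32 for dendritic cell, 0.21 for B and plasma cell, 1.12 for neutrophil and -0.41 for erythroid markers. Endothelial sums did not overlap, at 679.0 to 734.8 CPM in knockout against 570.3 to 658.5 CPM in control livers. Of 14 endothelial genes 13 lay above 0, 4 of them at an unadjusted p under 0.05 in edgeR. Hepatocyte sums, at 136700 to 156100 against 77050 to 135200 CPM, did not overlap either, and 8 of 10 genes lay above 0. With total counts as the scale both sums overlapped, the endothelial at 638.8 to 681.4 against 582.4 to 716.9 CPM. The neutrophil markers summed to 106.4 CPM in knockout replicate 1, against 17.1 and 22.8 CPM in the other knockout and 16.2 to 31.8 CPM in the control livers. The erythroid markers summed to 248.0 CPM in control replicate 1 and to 85.2 to 142.0 CPM in the other 5 livers. No marker was at 0 in all 6 libraries. The part of these differences in the mitosis values and in the level replication values was not tested.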

How the data were processed

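RNA was measured in 3 knockout and 3 control livers. The deposited table gives estimated counts and TPM per gene and library. HISAT2 2.2.1 and RSEM 1.3.3, fastp 0.23.2 and, for DESeq2, 1.38.3 stand in the submitters' processing notes, beside the build GRCm38 and without roles. Annotation, filters and use of strand are not given in the sources. The deposited expected counts were rounded (6.93% were not whole). The deposited TPM were used for levels between genes and in 2 alternatives.

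edgeR 4.0.16 was run in R 4.3.3 with filterByExpr, TMM scaling and a robust quasi-likelihood fit of genotype, with Benjamini-Hochberg adjustment over all genes. Standard errors are the log2 fold change over the square root of F, and 95% intervals use the fit's degrees of freedom. Alternatives were DESeq2 1.42.0, limma 3.58.1 (voom, log2(TPM + 1), log2(TPM + 0.1)), other scalings and filters, a replicate block and each library left out. The fit was tested on simulated data. Genes given with full statistics are the 3 members with the smallest p in each of 6 roles; the 3 with the smallest p of each other list are named, and the promoters shown were chosen among those with a match and no annotated exon in the stretch. The members and lists were chosen with earlier results of these data known. Gene positions came from GENCODE M21 (GRCm38). Of the members 14 share exon bases with a gene on the opposite strand. The replicates are separate mice per the labels.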

Additional observations from a re-analysis of the deposited data

How the results depend on the processing

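No member was called in either direction under any alternative. The count of all genes called, 0 in edgeR, was 119 in DESeq2, 5 with the replicate block and 0 to 2 when 1 library was left out (2 each when control replicate 2 or control replicate 3 was absent). The median log2 fold change of the members, 0.007, was -0.228 with total counts only, -0.184 in log2(TPM + 1) and -0.207 in log2(TPM + 0.1), and all genes then had medians of -0.209, -0.198 and -0.229; leaving out 1 library gave -0.085 to 0.057. Members lower at an unadjusted p under 0.05 numbered 0 in DESeq2, 2 with total counts (Rfc1, Ccne2), 4 in log2(TPM + 1) (Orc2, Rfc1, Dut, Ccne2), 3 in log2(TPM + 0.1) (Orc2, Dut, Ccne2) and 0 to 1 without 1 library. Rfc1 was not among them in DESeq2, in log2(TPM + 0.1) or without control replicate 1 or 3 or knockout replicate 1 or 3. Of all genes, 11.62%, 14.96%, 12.24% and 12.15% reached an unadjusted p under 0.05 in these 4 fits, in either direction. Without 1 library 6.02% to 13.06% did. Members higher at that p numbered 1 with the replicate block (Mcm10) and 0 to 1 without 1 library. Members whose groups did not overlap with the knockout above numbered 0 with total counts and in both TPM fits and 5 to 7 without 1 library (7 without control replicate 2). Those whose groups did not overlap with it below numbered 8 with total counts and 5 to 8 without 1 library. The share of all genes without overlap, in either direction, rose as well. It was 16.4% in edgeR with TMM, 21.2% with total counts, 20.0% in both TPM fits and 22.3% to 32.2% without 1 library. Members below 0 numbered 20 in edgeR with TMM, 38 with total counts, 37 in log2(TPM + 1) and 38 in log2(TPM + 0.1). Among the 18 genes given with full statistics, directions turned with total counts for Rpa1 (-0.035), Ccne1 (-0.020) and E2f1 (-0.067), in log2(TPM + 1) for Gins4 (-0.009), Rpa1 (-0.067) and E2f1 (-0.059), and in log2(TPM + 0.1) for Gins4 (-0.009), Rpa1 (-0.069) and E2f1 (-0.068); the cause was not tested. Libraries with the same replicate number correlated in their deviations at 0.115, -0.007 and 0.133, and knockout replicate 1 correlated best with control replicate 2, so that the numbers were not taken to pair the mice; the replicate block gave the members a median of 0.014. Depth limits Orc1, Cdc6, Cdc45 and Ccne1, which had at most 43 counts in any library. It also limits Gins3, which had 13 to 53 counts and a lower mean CPM than Cdc45 and Ccne1.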
